A study of Mus musculus with 17 samples.

Results

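The genes described here are Pomc and 9 genes that act on its product or its release signal, chosen by symbol: Pcsk1, Pcsk2, Pam, Cpe, Cpd, Scg5, Pcsk1n, Furin and Crhr1. They are 10 of the 23284 gene symbols counted, and all 10 had a row in every table and passed the filter on low counts in every fit. RNA-seq counts came from 17 mouse tumours that the labels call neuroendocrine pituitary tumours, 9 with the genotype Rb1/Trp53 and 8 with Rb1/Trp53/Crebbp, so engineered Rb1 and Trp53 are common to both genotypes and Crebbp is the difference. The comparison asks which genes differ with the labelled genotype at Crebbp, which encodes an acetyltransferase and transcriptional coactivator. The labels used here name no Cre driver, age, sex, strain or animal, and do not state whether each tumour is from a different mouse, so p-values measure the spread between these samples only.

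The tumours were split by their own counts into Pomc-high libraries, with more Pomc than Calca reads (6 Rb1/Trp53: T2, T5, T6, T7, T8 and T9; 4 Rb1/Trp53/Crebbp: T5 to T8), and Calca-high libraries, the rest (3 Rb1/Trp53: T1, T3 and T4; 4 Rb1/Trp53/Crebbp: T1 to T4). Gene totals ran from 8328297 to 28140755 reads per library. In the Calca-high set the depth differed by genotype, 20361712 to 28140755 reads in Rb1/Trp53 and 8328297 to 15490074 in Rb1/Trp53/Crebbp. The label of a pituitary tissue was checked against markers, in CPM (reads per 1000000 gene reads after TMM scaling, the unit of all levels below unless another is named). In the Pomc-high libraries Tbx19, the T-box factor of Pomc cells, reached 305 to 418 CPM, and Pax7, the selector of the melanotroph, 125 to 298 CPM. Neurod1, from the same joint list of corticotroph and melanotroph markers, was at only 0 to 1.22 CPM there. That list does not separate these cell types. In the Calca-high libraries neither Tbx19 nor Pax7 had more than 3 reads in any library, and Gh, Fshb and Gnrhr had none. The pituitary factors Pitx1 and Lhx3 were not absent there, at 1.05 to 44.6 and 0.870 to 7.60 CPM. Their Pomc-high ranges were 146 to 238 and 143 to 241 CPM. The Calca-high libraries instead carried Calca, the calcitonin gene, at 34402 to 176646 CPM, Nkx2-1, a thyroid and lung factor, at 188 to 331 CPM, and Tg, thyroglobulin, at 900 to 16647 CPM. They are therefore named by their leading gene and not by the labelled tissue. Crebbp itself was not lower in the libraries labelled with its alteration in the Calca-high set (67.3 to 93.3 CPM, with Rb1/Trp53 at 48.2 to 55.6), and its ranges overlapped in the Pomc-high set (42.8 to 62.1 against 39.7 to 116 CPM). A whole-gene count does not check a deletion of part of a gene.

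Pomc encodes pro-opiomelanocortin, a precursor that is cut into ACTH, melanocyte-stimulating hormones and beta-endorphin. The convertase encoded by Pcsk1 makes the first cuts, and the one encoded by Pcsk2 cuts ACTH further, a step typical of melanotrophs rather than corticotrophs. Carboxypeptidase E (Cpe) trims the basic residues left behind, carboxypeptidase D (Cpd) does the same earlier in the secretory pathway, and Pam amidates the ends of peptides such as alpha-MSH and calcitonin. Scg5 encodes the 7B2 chaperone that Pcsk2 needs to become active, Pcsk1n encodes proSAAS, from which an inhibitor of the Pcsk1 convertase is made, Furin is the ubiquitous convertase of the trans-Golgi, and Crhr1 is the receptor through which CRH drives the corticotroph. Calcitonin-producing C cells process their own prohormone with many of these enzymes.

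The promoters of the hormone gene, both neuroendocrine convertases, the amidating enzyme and the chaperone are shown. This choice includes Pomc and Scg5, called by genotype in neither set, and leaves out Cpd and Crhr1, called in the Calca-high set. The element searched for is the cAMP response element, the site of CREB, for whose binding Crebbp is named. Each window is the 250 bases before the start site from RefSeq (GRCm38.p6, which is not the mm9 build of the count tables), 5′ to 3′ on the gene's strand. Capitals mark TGACGTCA (the full element), TGACG (its half-site) or TATAAA, searched on both strands. A full element also holds a half-site on each strand. RefSeq promoters were matched for 9 of the 10 genes, all but Cpe. The windows lie at chr12:3954695-3954944 (Pomc, plus strand), chr13:75089607-75089856 (Pcsk1, plus), chr2:143545883-143546132 (Pcsk2, plus), chr1:98095647-98095896 (Pam, minus, the first of its start sites) and chr2:113829092-113829341 (Scg5, minus).

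Pomc: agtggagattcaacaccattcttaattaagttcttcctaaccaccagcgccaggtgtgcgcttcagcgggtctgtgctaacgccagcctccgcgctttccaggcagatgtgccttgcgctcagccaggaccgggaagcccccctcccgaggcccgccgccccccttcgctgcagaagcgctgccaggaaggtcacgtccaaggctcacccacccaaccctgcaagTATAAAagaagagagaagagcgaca

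Pcsk1: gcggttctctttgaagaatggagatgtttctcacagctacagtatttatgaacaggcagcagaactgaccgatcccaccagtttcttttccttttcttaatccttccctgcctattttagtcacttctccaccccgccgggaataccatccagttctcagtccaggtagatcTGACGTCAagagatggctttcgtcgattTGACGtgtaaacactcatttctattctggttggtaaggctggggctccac

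Pcsk2: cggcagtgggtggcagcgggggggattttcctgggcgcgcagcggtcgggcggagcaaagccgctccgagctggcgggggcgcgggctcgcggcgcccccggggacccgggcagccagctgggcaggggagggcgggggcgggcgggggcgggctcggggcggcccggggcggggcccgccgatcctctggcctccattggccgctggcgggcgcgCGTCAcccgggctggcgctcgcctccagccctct

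Pam: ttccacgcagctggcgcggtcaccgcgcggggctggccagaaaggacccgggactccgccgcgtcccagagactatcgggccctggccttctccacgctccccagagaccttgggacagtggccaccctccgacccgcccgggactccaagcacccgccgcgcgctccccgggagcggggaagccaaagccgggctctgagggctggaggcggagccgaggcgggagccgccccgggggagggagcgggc

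Scg5: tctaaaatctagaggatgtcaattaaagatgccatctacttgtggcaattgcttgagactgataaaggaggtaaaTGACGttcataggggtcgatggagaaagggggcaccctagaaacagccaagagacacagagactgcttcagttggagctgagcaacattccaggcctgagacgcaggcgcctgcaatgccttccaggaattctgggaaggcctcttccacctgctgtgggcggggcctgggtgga

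The Pomc window held TATAAA beginning 25 bases before the start and no half-site. The Pcsk1 window held a full element beginning 78 bases before the start and a further half-site at 50. The Pcsk2 window held 1 half-site, on the minus strand, at 34, and the Scg5 window 1 at 175. Neither was found in the Pam window. Of the windows not shown, those of Cpd, Pcsk1n and Crhr1 held neither, and the first Furin window held 1 half-site. Of 27025 RefSeq promoter windows of this length, 1.62% held the full element, 17.9% the half-site and 12.97% TATAAA, so the half-site is common. The windows shown also differed in composition, from 46.8% GC for Pcsk1 to 82.4% for Pcsk2, against a median of 52% over all promoter windows. A match describes letters in a window and is no evidence of binding.

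The plot of levels by library shows the 10 genes side by side before each is taken in turn.

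**Figure D1:**
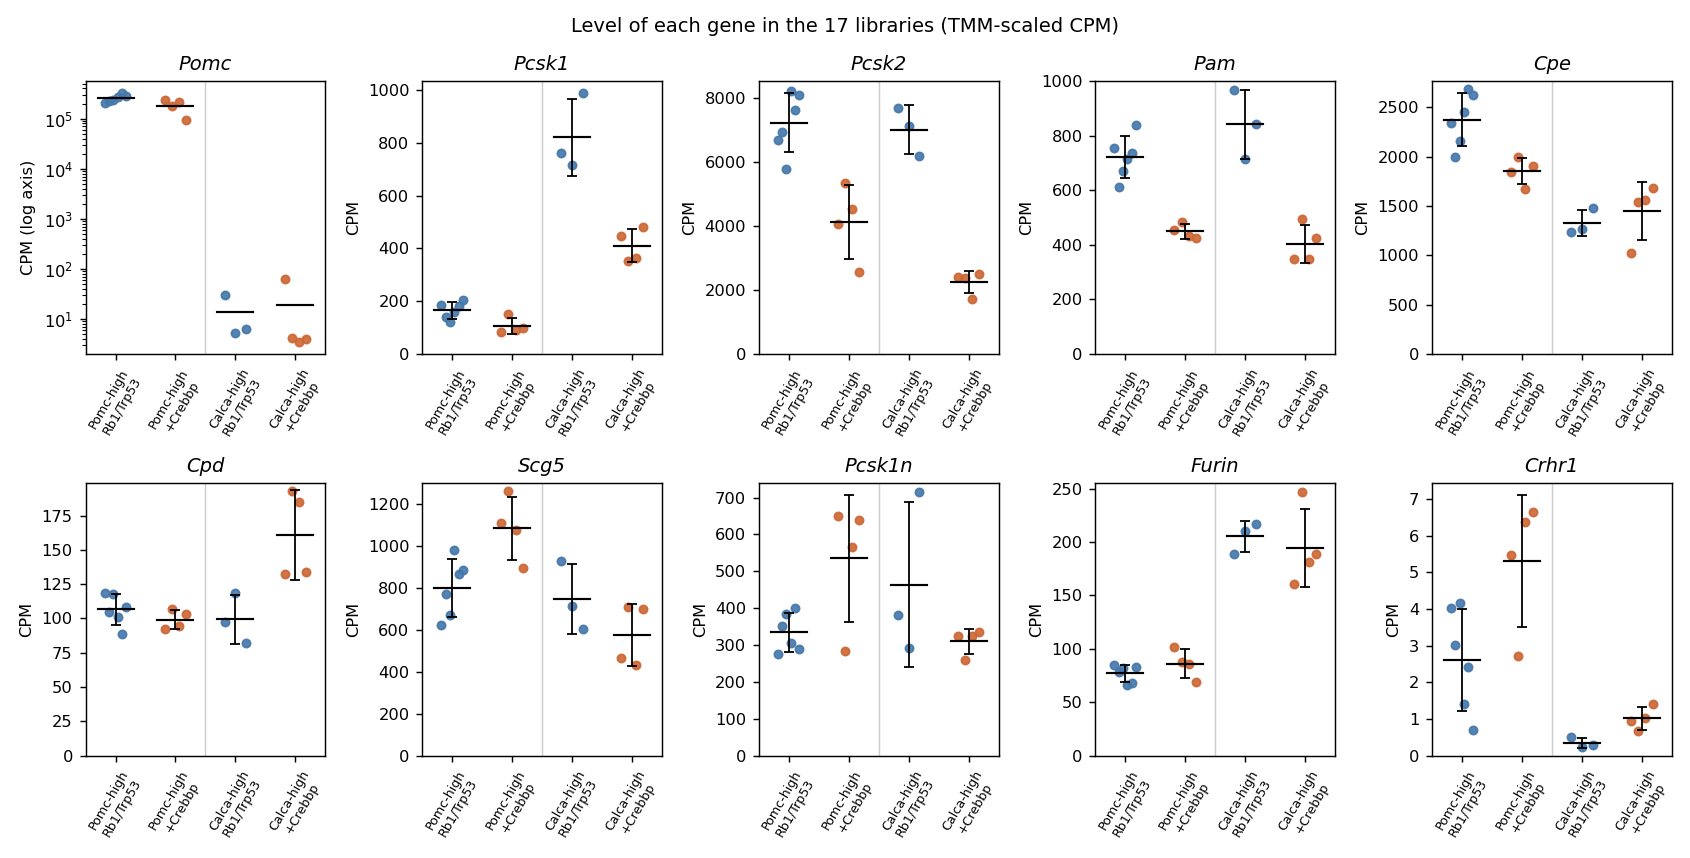
Level of each gene (y axis, TMM-scaled CPM, a log axis for Pomc only) in every library, grouped on the x axis by set and genotype (+Crebbp stands for Rb1/Trp53/Crebbp). Points are libraries, long bars are means and error bars are SD (not drawn for Pomc). Pcsk2 and Pam separate the genotypes in both sets, with Pam between 612 and 842 CPM in Rb1/Trp53 and between 424 and 484 CPM in Rb1/Trp53/Crebbp of the Pomc-high set.

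Pomc was the dominant transcript of the Pomc-high libraries. It took 20.5% (lowest), 23.6% (median) and 27.8% (highest) of all gene counts in the 6 Rb1/Trp53 libraries, and 22.0%, 18.2%, 20.9% and 10.6% in Rb1/Trp53/Crebbp T5, T6, T7 and T8. T8 was low and the rest of that genotype reached into the range of Rb1/Trp53. The mean was 257598 ± 40669 CPM (SD, n = 6) in Rb1/Trp53 and 179931 ± 61029 CPM (SD, n = 4) in Rb1/Trp53/Crebbp, a log2 difference of -0.50 ± 0.23 (SE) that did not pass the threshold of 0.05 (edgeR adjusted p = 0.194). Without T8 the log2 difference was -0.27. T8 also had the highest sum of posterior lobe and astroglial markers, 400 CPM over 7 genes against 25.9 to 83.4 CPM in the other Pomc-high libraries, and the part of these cells in its Pomc level was not tested. In bulk tumours, fewer cells of a type and less RNA per cell cannot be told apart.

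In the Calca-high libraries Pomc was nearly absent. It stood at 30.9, 5.31 and 6.32 CPM in Rb1/Trp53 T1, T3 and T4, and at 64.2, 4.16, 3.58 and 4.02 CPM in Rb1/Trp53/Crebbp T1 to T4. T1 of each genotype was high and the other 5 libraries lay between 3.58 and 6.32 CPM. No genotype difference was called (log2 0.41 ± 1.31, edgeR adjusted p = 0.830), and the direction turned to -1.84 without Rb1/Trp53/Crebbp T1 and to -0.60 under limma-voom. Without Rb1/Trp53 T1 it was 1.70.

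Pcsk2, the convertase that follows Pcsk1, was lower in Rb1/Trp53/Crebbp tumours of both sets. In the Pomc-high set it was at 5800 (lowest), 7297 (median) and 8220 (highest) CPM in Rb1/Trp53, and at 4061, 5340, 4553 and 2566 CPM in Rb1/Trp53/Crebbp T5 to T8. The genotypes did not overlap. The fall was 0.79 ± 0.19 on the log2 scale, that is a fall of 1.73-fold (edgeR adjusted p = 0.0216). This call was lost without Rb1/Trp53/Crebbp T5, at a log2 difference of -0.78 (edgeR adjusted p = 0.0562). With 1 library left out the difference ran from -0.94 to -0.60. T8, described above for its astroglial markers, had the lowest Pcsk2.

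Among Calca-high libraries Pcsk2 was at 7716, 7130 and 6194 CPM in Rb1/Trp53 T1, T3 and T4, and at 2416, 2388, 1732 and 2490 CPM in Rb1/Trp53/Crebbp T1 to T4. Every Rb1/Trp53/Crebbp value was under the lowest Rb1/Trp53 value. Pcsk2 fell by 1.62 ± 0.17 on the log2 scale, a fall of 3.07-fold (edgeR adjusted p = 0.00111), and stayed called without each library in turn. The fall was larger here than in the Pomc-high set by a test of the difference itself (interaction log2 0.83 ± 0.26, edgeR adjusted p = 0.0339). That interaction missed the threshold without any 1 of 6 libraries, Rb1/Trp53 T1 (0.80, adjusted p = 0.0704) and T3 (0.81, 0.0653) and Rb1/Trp53/Crebbp T3 (0.77, 0.0616), T5 (0.83, 0.0530), T6 (0.68, 0.0637) and T7 (0.78, 0.0649).

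Pam, the only enzyme known to amidate peptides, was lower in Rb1/Trp53/Crebbp in both sets. Among Pomc-high libraries it was at 612 (lowest), 727 (median) and 842 (highest) CPM in Rb1/Trp53 and at 455, 484, 434 and 424 CPM in Rb1/Trp53/Crebbp T5 to T8. The 4 Rb1/Trp53/Crebbp libraries lay close together and none reached the lowest Rb1/Trp53 library. Pam fell by 0.66 ± 0.10 on the log2 scale, or 1.58-fold (edgeR adjusted p = 0.00229).

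Across the Calca-high tumours Pam was at 969, 717 and 844 CPM in Rb1/Trp53 T1, T3 and T4 and at 348, 495, 347 and 424 CPM in Rb1/Trp53/Crebbp T1 to T4. Again the genotypes did not overlap. Pam fell by 1.05 ± 0.16 on the log2 scale, or 2.06-fold (edgeR adjusted p = 0.00284). The difference between the sets' effects did not pass (interaction log2 0.38 ± 0.18, edgeR adjusted p = 0.140; 0.54, adjusted p = 0.0398, without Rb1/Trp53/Crebbp T2). Pam was called within both sets under every alternative run.

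Pcsk1, the convertase of the first cuts, fell in the Calca-high set, where its level was also several times that of the Pomc-high set. It was at 761, 717 and 989 CPM in Rb1/Trp53 T1, T3 and T4 and at 447, 354, 362 and 479 CPM in Rb1/Trp53/Crebbp T1 to T4. The genotypes did not overlap, and Pcsk1 fell by 0.98 ± 0.16 on the log2 scale, or 1.98-fold (edgeR adjusted p = 0.00321).

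Across the Pomc-high tumours Pcsk1 was at 119 (lowest), 171 (median) and 203 (highest) CPM in Rb1/Trp53 and at 84.4, 152, 90.7 and 96.7 CPM in Rb1/Trp53/Crebbp T5 to T8. T6 lay inside the Rb1/Trp53 range and the other 3 lay below it. The log2 difference of -0.61 ± 0.19 did not pass (edgeR adjusted p = 0.0617). It passed without Rb1/Trp53/Crebbp T6 (-0.85, adjusted p = 0.00853), without Rb1/Trp53 T6 (-0.69, adjusted p = 0.0382), under DESeq2 (adjusted p = 0.0121) and in a joint fit of all 4 groups (adjusted p = 0.0393).

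Cpe, the carboxypeptidase of secretory granules, was not called in either set. It was at 1999 (lowest), 2399 (median) and 2685 (highest) CPM in the Pomc-high Rb1/Trp53 libraries and at 1843, 1995, 1678 and 1907 CPM in Rb1/Trp53/Crebbp T5 to T8. The genotypes did not overlap by a margin of a few CPM, and the log2 difference of -0.34 ± 0.11 did not pass (edgeR adjusted p = 0.0869; DESeq2 0.00780). Within the Calca-high set Cpe was at 1242, 1266 and 1476 CPM in Rb1/Trp53 and at 1020, 1544, 1564 and 1678 CPM in Rb1/Trp53/Crebbp, which overlap (log2 0.14 ± 0.18, edgeR adjusted p = 0.550).

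Cpd rose in the Calca-high set. It was at 97.6, 118 and 82.4 CPM in Rb1/Trp53 T1, T3 and T4 and at 132, 193, 185 and 134 CPM in Rb1/Trp53/Crebbp T1 to T4. The genotypes did not overlap, and the rise was 0.71 ± 0.18 on the log2 scale, or 1.64-fold (edgeR adjusted p = 0.0198). It missed the threshold without Rb1/Trp53 T1 (0.70, adjusted p = 0.0550) and without Rb1/Trp53/Crebbp T3 (0.63, adjusted p = 0.0510). In the Pomc-high set Cpd was at 89.0 to 119 CPM and 92.0 to 107 CPM in the same order of genotypes, with a log2 difference of -0.08 ± 0.09 (edgeR adjusted p = 0.609). The effects in the sets differed (interaction log2 -0.80 ± 0.20, edgeR adjusted p = 0.00893), and this held without each library in turn.

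The plot of genotype effects sets these differences beside each other.

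**Figure D2:**
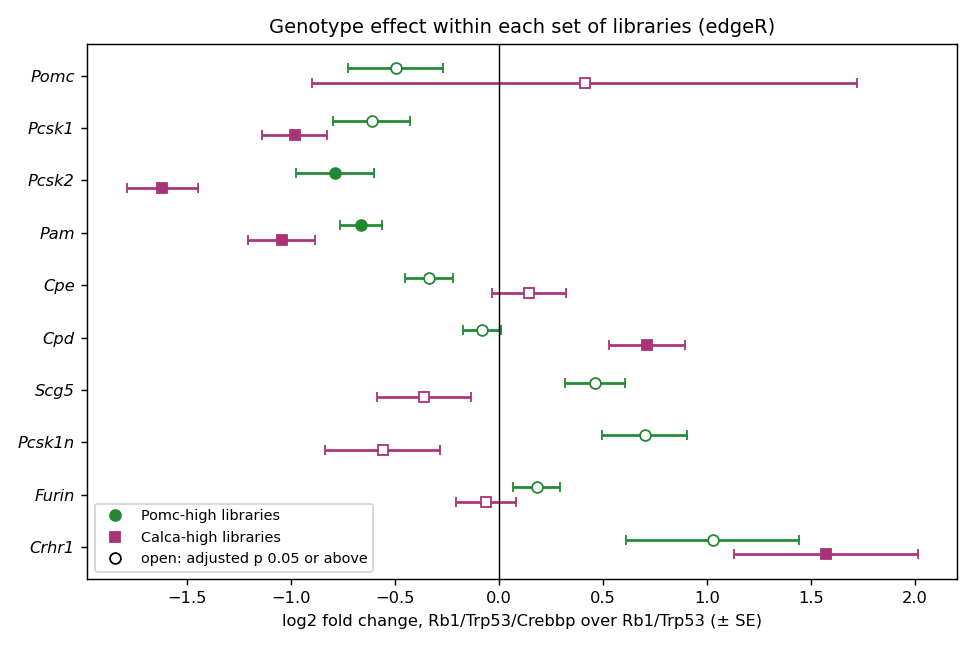
Log2 fold change of each gene, Rb1/Trp53/Crebbp over Rb1/Trp53 (x axis, bars are SE), in the Pomc-high libraries (circles) and the Calca-high libraries (squares). Filled symbols passed an edgeR adjusted p of 0.05. Pcsk2 and Pam are filled on the left in both sets, at -0.79 and -0.66 for circles and -1.62 and -1.05 for squares.

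The chaperone Scg5 was not called in either set. Among Pomc-high libraries it was at 623 (lowest), 819 (median) and 983 (highest) CPM in Rb1/Trp53 and at 1110, 1260, 1076 and 894 CPM in Rb1/Trp53/Crebbp T5 to T8. T8 lay inside the Rb1/Trp53 range and the other 3 above it. The log2 difference of 0.46 ± 0.14 did not pass (edgeR adjusted p = 0.0679), but did without Rb1/Trp53 T7 (0.53, adjusted p = 0.0487), without Rb1/Trp53/Crebbp T8 (0.56, adjusted p = 0.0330) and under DESeq2 (adjusted p = 0.0120).

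In the Calca-high set Scg5 was at 930, 712 and 603 CPM in Rb1/Trp53 and 467, 708, 430 and 701 CPM in Rb1/Trp53/Crebbp, with overlap (log2 -0.36 ± 0.23, edgeR adjusted p = 0.241). The sets' effects differed (interaction log2 0.82 ± 0.26, edgeR adjusted p = 0.0362). That call is close to the threshold: it was lost in 10 of the 17 fits that left out 1 library, Rb1/Trp53 T1, T2, T3, T5 or T6 or Rb1/Trp53/Crebbp T1, T3, T5, T6 or T7, with values of 0.68 to 0.85 and adjusted p of 0.0505 to 0.0959.

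Within a library the ratio of Scg5 to Pcsk2 counts needs no scaling between libraries, and it was higher in Rb1/Trp53/Crebbp in both sets. Across the Pomc-high tumours the ratio was 0.0930 to 0.120 in the 6 Rb1/Trp53 libraries and 0.273, 0.236, 0.236 and 0.348 in Rb1/Trp53/Crebbp T5 to T8. Among Calca-high libraries it was 0.121, 0.0998 and 0.0974 in Rb1/Trp53 T1, T3 and T4 and 0.193, 0.296, 0.248 and 0.281 in Rb1/Trp53/Crebbp T1 to T4. The genotypes did not overlap in either set, and the 9 Rb1/Trp53 libraries of both sets shared 1 narrow range.

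The difference in mean log2 ratio was 1.30 (2.46-fold) in the Pomc-high set, with an exact two-sided permutation p = 0.00952, the smallest this design can give, and 0.0571 after Benjamini-Hochberg adjustment over the 6 ratio tests made. For the Calca-high set it was 1.25 (2.39-fold) with an exact permutation p = 0.0571, also the smallest possible there, and 0.114 adjusted. These p-values double the smaller tail. Counting regroupings by the absolute difference, an equally exact definition, gave adjusted p = 0.0286 and 0.0571 in the same order, so whether the Pomc-high ratio passes 0.05 rests on that choice, which was made after both had been computed.

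**Figure D3:**
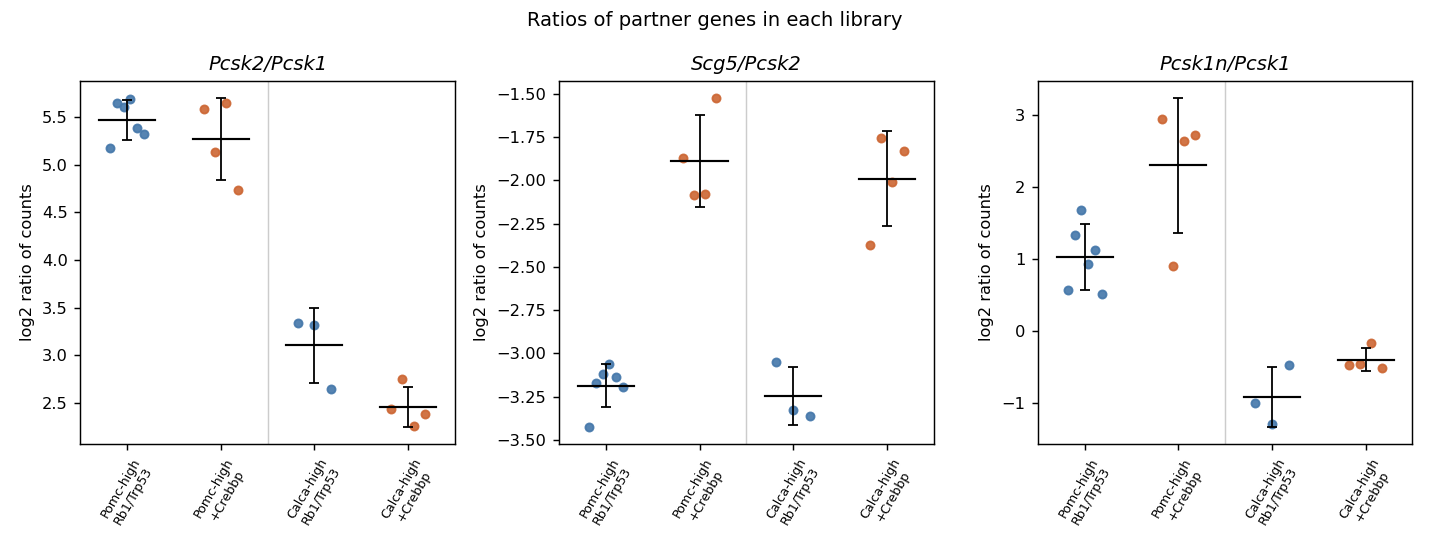
Log2 ratio of counts (y axis) for 3 pairs of partner genes in every library, grouped by set and genotype on the x axis. Points are libraries, bars are means and error bars SD. The Scg5/Pcsk2 ratio separates the genotypes in both sets by 1.30 and 1.25.

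Pcsk1n, the source of an inhibitor of the Pcsk1 convertase, differed in its genotype effect between the sets. In the Pomc-high set it was at 274 (lowest), 328 (median) and 401 (highest) CPM in Rb1/Trp53 and at 650, 284, 566 and 639 CPM in Rb1/Trp53/Crebbp T5 to T8. T6 stood apart from the other 3, which were all above Rb1/Trp53. The log2 difference was 0.70 ± 0.20 (edgeR adjusted p = 0.0531), and 0.91 without T6 (adjusted p = 0.00266). DESeq2 gave an adjusted p of 0.00663.

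Across the Calca-high tumours Pcsk1n was at 381, 293 and 716 CPM in Rb1/Trp53 T1, T3 and T4 and at 323, 259, 323 and 335 CPM in Rb1/Trp53/Crebbp T1 to T4. T4 of Rb1/Trp53 was high and the rest overlapped. The log2 difference was -0.56 ± 0.27 (edgeR adjusted p = 0.145), -0.80 without Rb1/Trp53 T3 (adjusted p = 0.0466) and -0.11 without Rb1/Trp53 T4. The interaction of 1.26 ± 0.36 (edgeR adjusted p = 0.0214) was 0.80 without Rb1/Trp53 T4 (adjusted p = 0.0791). The ratio of Pcsk1n to Pcsk1 counts was 1.43 to 3.21 in Pomc-high Rb1/Trp53 and 7.70, 1.87, 6.24 and 6.61 in Rb1/Trp53/Crebbp, where T6 lay inside the Rb1/Trp53 range (difference in log2 ratio 1.27, exact two-sided permutation p = 0.0476, adjusted 0.114). Leaving out any 1 library but T6 of Rb1/Trp53/Crebbp raised this p above 0.05, to between 0.0635 and 0.119, with differences of 1.06 to 1.40. Within the Calca-high set the ratio ran from 0.409 to 0.725 and from 0.699 to 0.893, a log2 difference of 0.52 (exact permutation p = 0.171).

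The ratio of Pcsk2 to Pcsk1 counts overlapped between genotypes in both sets. It was 36.1 to 51.7 in Pomc-high Rb1/Trp53 and 48.1, 35.0, 50.2 and 26.5 in Rb1/Trp53/Crebbp T5 to T8 (log2 difference -0.20, exact two-sided permutation p = 0.352). Without Rb1/Trp53/Crebbp T8 this difference was -0.014. In the Calca-high set the ratio was 10.1, 9.95 and 6.27 in Rb1/Trp53 and 5.41, 6.75, 4.78 and 5.19 in Rb1/Trp53/Crebbp (log2 difference -0.65, exact two-sided permutation p = 0.114). Pcsk2 reads outnumbered Pcsk1 reads in every library of both sets.

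Furin did not differ by genotype past the threshold. Among Pomc-high libraries it was at 66.0 to 84.6 CPM in Rb1/Trp53 and 68.7 to 102 CPM in Rb1/Trp53/Crebbp (log2 0.18 ± 0.11, edgeR adjusted p = 0.338). Among Calca-high libraries it was at 189, 210 and 217 CPM and at 161, 246, 182 and 189 CPM (log2 -0.06 ± 0.14, edgeR adjusted p = 0.765), and the sign turned, to 0.02, without Rb1/Trp53/Crebbp T1.

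Crhr1 was a low transcript throughout. Across the Pomc-high tumours it was at 0.703 (lowest), 2.72 (median) and 4.15 (highest) CPM in Rb1/Trp53 and at 5.48, 2.73, 6.38 and 6.65 CPM in Rb1/Trp53/Crebbp T5 to T8, of which T6 lay inside the Rb1/Trp53 range (log2 1.03 ± 0.42, edgeR adjusted p = 0.143). Across the Calca-high tumours it had 6 to 11 reads in each Rb1/Trp53 library and 9 to 24 in each Rb1/Trp53/Crebbp library, or 0.504, 0.228 and 0.301 against 0.949, 0.673, 1.02 and 1.42 CPM. The ranges in CPM did not overlap and the rise of 1.57 ± 0.44 on the log2 scale passed (edgeR adjusted p = 0.0257), but it rests on these few reads. It was lost without Rb1/Trp53 T3 (1.34, adjusted p = 0.0953) or T4 (1.49, 0.0577), and without Rb1/Trp53/Crebbp T3 (1.56, 0.0556) or T4 (1.35, 0.0703).

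Counted together, 0 of the 10 genes rose and 2 fell in the Pomc-high set, where 8.42% of the 14010 genes tested were called (3.15% higher and 5.26% lower). At an unadjusted edgeR p under 0.05 the number was 8, against 25.4% of all genes, and DESeq2 called 6, against 13.7%. Genotypes did not overlap for 3 of the 10 genes, against 9.73% of all genes. Within the Calca-high set 2 rose and 3 fell, against 36.2% of 14797 genes called (19.1% higher and 17.1% lower), and 5 did not overlap, against 44.4% of all genes. That share of the 10 genes is near the background, so the number called there says little about them as a group. The median log2 fold change of the 10 genes was -0.21 in both sets, against 0.01 and -0.02 over all genes tested. Over all 17 libraries, mixing both sets, Pcsk2 (-1.17 ± 0.20) and Pam (-0.84 ± 0.10) were called (edgeR adjusted p = 0.00491 and 0.000406), against 3.86% of genes (2.05% lower). The interaction was called for 4 of the 10 genes, against 22.9% of 15432 genes. Membership of the sets is defined from Pomc and Calca counts.

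Other markers moved with genotype in the same libraries. In the Calca-high set the 7 C-cell markers summed to 118628 to 177724 CPM in Rb1/Trp53 and 35036 to 67982 CPM in Rb1/Trp53/Crebbp. Nearly all of that sum is Calca, the gene that defines the set, and the other 6 summed to 1078 to 1324 and 588 to 666 CPM. In the same order of genotypes, the 10 thyroid follicular markers summed to 2169 to 17084 and 948 to 1321 CPM, the 5 fat markers to 39.8 to 224 and 6.51 to 10.2 CPM, and the 9 lung markers to 218 to 371 and 74.0 to 107 CPM. Of 7 lung markers tested by edgeR, 4 were called lower and 1 higher in Rb1/Trp53/Crebbp, against 17.1% and 19.1% of all genes. The 7 endothelial markers summed to 64.8 to 85.4 and 36.1 to 52.3 CPM, the 7 macrophage markers to 137 to 180 and 52.0 to 121 CPM, and the 6 fibroblast markers, which overlapped, to 534 to 868 and 185 to 618 CPM. The share of reads assigned to no feature was 15.9% to 16.5% and 18.5% to 21.7%. Rb1/Trp53 T1 and T3 had the most follicular and fat signal. With both left out, the log2 difference was -1.43 for Pcsk2, -1.04 for Pam, -1.24 for Pcsk1 and 0.99 for Cpd. It was 1.76 for Crhr1 and -1.18 for Pcsk1n. Pcsk1n was at 716 CPM in Rb1/Trp53 T4, the library kept, and at 381 and 293 CPM in T1 and T3. That fit kept 1 Rb1/Trp53 library, T4, which was assumed to vary like the others. T4 still had more follicular (2169 CPM), fat (39.8 CPM) and lung (218 CPM) signal than any Rb1/Trp53/Crebbp library of the set. These markers thus still differed by genotype in that fit. In the Pomc-high set the 7 endothelial markers summed to 46.7 to 77.0 CPM in Rb1/Trp53 and 18.5 to 46.0 CPM in Rb1/Trp53/Crebbp, and the 7 macrophage markers to 73.2 to 211 and 17.7 to 152 CPM. The 9 markers of other anterior lobe cells summed to 11.3 to 14288 and 48.1 to 2344 CPM, which overlap. The part of these cells in the results was not tested.

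Between the sets, levels are given as a description, since the sets were made from the same counts. Among all genes, 48.6% in Rb1/Trp53 and 47.9% in Rb1/Trp53/Crebbp had sets that did not overlap, and nothing is read from the number of members that did so. Mean Pcsk1 was 4.99-fold higher in the Calca-high set in Rb1/Trp53 and 3.87-fold in Rb1/Trp53/Crebbp. Furin was 2.67-fold and 2.26-fold higher there. Crhr1 was 7.62-fold and 5.22-fold higher in the Pomc-high set, and none of these 3 genes overlapped between sets in either genotype.

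Several genes differed between the sets in 1 genotype. Pcsk2 means were within 1.03-fold of each other in Rb1/Trp53, with overlap, and 1.83-fold higher in the Pomc-high set in Rb1/Trp53/Crebbp, without. Scg5 was 1.07-fold and 1.88-fold higher in the Pomc-high set in the same order. Cpd was 1.62-fold higher in the Calca-high set in Rb1/Trp53/Crebbp and overlapped in Rb1/Trp53, while Cpe was 1.79-fold higher in the Pomc-high set in Rb1/Trp53 and overlapped in Rb1/Trp53/Crebbp. Pam and Pcsk1n overlapped between sets in both genotypes.

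To order genes against each other, CPM was divided by exon length in kilobases. In Pomc-high Rb1/Trp53 libraries the mean level per kilobase of exon was 225567 for Pomc, then 1533 for Pcsk2 and 1123 for Cpe, which overlapped, then 662 for Scg5. Pam (176) and Pcsk1n (152) overlapped, and Pcsk1 (32.7), Furin (17.5), Cpd (13.4) and Crhr1 (1.07) followed, each below the range of the gene before it. In Pomc-high Rb1/Trp53/Crebbp libraries Scg5 (898), Cpe (877) and Pcsk2 (875) had overlapping ranges in sequence and Pcsk1n (244) stood above Pam (110).

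In Calca-high Rb1/Trp53 libraries Pcsk2 led at 1485 CPM per kilobase, ahead of Cpe (627) and Scg5 (620), which overlapped. Pcsk1n (211), Pam (206) and Pcsk1 (163) overlapped in turn, above Furin (46.7), and Cpd (12.5) and Pomc (12.4) overlapped, above Crhr1 (0.140). In Calca-high Rb1/Trp53/Crebbp libraries Cpe (686), Pcsk2 (478) and Scg5 (477) overlapped in turn, so Pcsk2 no longer stood above the rest.

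**Figure D4:**
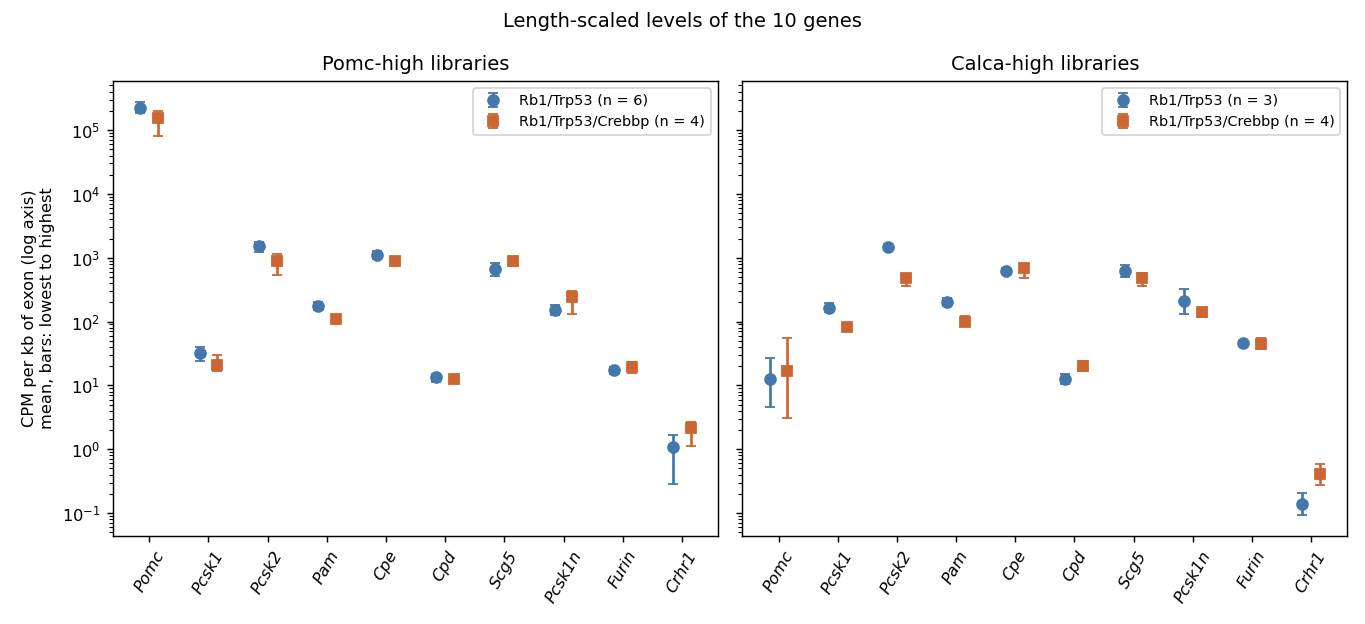
Mean CPM per kilobase of exon (y axis, log axis) for each gene (x axis) in the Pomc-high (left) and Calca-high (right) libraries by genotype. Bars run from the lowest to the highest library. Pomc falls from 225567 (left) to 12.4 (right) in Rb1/Trp53, while Pcsk2 stays at 1533 and 1485.

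Other genes of the pathway were taken from lists, whose counts are to be read against the shares of all genes called, 3.15% higher and 5.26% lower in the Pomc-high set and 19.1% higher and 17.1% lower in the Calca-high set. Of 6 other convertases of the subtilisin family, 5 were tested in each set. None was called in the Pomc-high set (0 at adjusted p under 0.05 by edgeR), and in the Calca-high set 1 rose and 1 fell. Those were Pcsk7, at 34.8 ± 2.6 CPM (SD, n = 3) and 44.0 ± 3.7 CPM (SD, n = 4), and Pcsk4, at 7.95 ± 5.1 and 2.63 ± 0.54 CPM. The median log2 fold change was -0.40 for Pomc-high and 0.31 for Calca-high tumours.

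Of 12 other peptidases and cyclases of peptide maturation, 11 were tested in the Pomc-high set, where 0 rose and 2 fell, and 10 in the Calca-high set, where 1 rose and 5 fell (median log2 fold change -0.19 and -0.49). Cpz, a carboxypeptidase of the extracellular matrix, fell from 88.4 ± 16 to 22.2 ± 8.4 CPM in the Pomc-high set (log2 -1.97 ± 0.25, edgeR adjusted p = 0.00119). Among Calca-high libraries it was at or under 0.190 CPM in every library. Ctsl, cathepsin L, fell from 833 ± 142 to 433 ± 84 CPM in the Calca-high set (log2 -0.93 ± 0.19, edgeR adjusted p = 0.00772). Qpct, the cyclase that makes N-terminal pyroglutamate, rose there from 6.13 ± 1.5 to 22.1 ± 11 CPM (log2 1.88 ± 0.40, edgeR adjusted p = 0.0100), and Cpxm2 fell from 10.7 ± 4.2 to 3.81 ± 1.2 CPM.

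Of 14 genes for copper, ascorbate and proton supply and for partners of Pam, 0 of 13 tested were called in the Pomc-high set by edgeR. Across the Calca-high tumours 2 of 14 rose and 3 fell, with a median log2 fold change of -0.13, and the share called is about that of all genes there (36.2%). Rassf9, a binding partner of the Pam tail, fell from 2.82 ± 2.0 to 0.268 ± 0.23 CPM (log2 -3.37 ± 0.71, edgeR adjusted p = 0.00894). Its lowest Rb1/Trp53/Crebbp library had 1 read. Uhmk1, a kinase of the same tail, rose from 4.62 ± 0.41 to 15.4 ± 5.9 CPM (log2 1.76 ± 0.30, edgeR adjusted p = 0.00429). Atox1, a copper chaperone, fell by 0.47 and Atp6v1a, a proton pump subunit, rose by 0.39 on the log2 scale.

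Of 20 genes that feed Pomc transcription, 15 were tested in the Pomc-high set, where 0 rose and 1 fell (median log2 fold change -0.16), and 12 in the Calca-high set, where 5 rose and 0 fell (median 0.87), against 19.1% higher and 17.1% lower of all genes. The gene that fell was Drd2, the dopamine receptor that restrains melanotrophs, at 450 to 565 CPM in Rb1/Trp53 and 184 to 365 CPM in Rb1/Trp53/Crebbp (log2 -0.72 ± 0.16, edgeR adjusted p = 0.0183, no overlap). Among those that rose in the Calca-high set, Nr4a3, an orphan nuclear receptor, went from 0.125 ± 0.082 to 1.97 ± 0.82 CPM and Crhr2 from 0.149 ± 0.15 to 1.81 ± 0.70 CPM, both on a lowest library of 1 read in Rb1/Trp53. Il6st, the shared receptor chain of LIF and IL-6, rose from 48.8 ± 6.1 to 85.7 ± 23 CPM (log2 0.83 ± 0.20, edgeR adjusted p = 0.0156).

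Of 12 receptors of Pomc peptides and their accessory genes, 11 had a row and 2 were tested in each set. Mc3r fell in the Pomc-high set from 7.81 ± 1.8 to 4.12 ± 0.34 CPM (log2 -0.90 ± 0.22, edgeR adjusted p = 0.0229) and had 0 reads in every Calca-high library. No receptor was called in the Calca-high set by edgeR.

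Genes whose profile over the 10 Pomc-high libraries was most like that of Pomc were found by the root mean square difference of log2 CPM, each gene centred on its own mean, among 11733 genes. They were Sult2b1 (0.12), Mfge8 (0.15) and Cryba2 (0.16), where the Pomc profile itself had a root mean square of 0.46. Pomc was lowest in Rb1/Trp53/Crebbp T8, at 93777 CPM, and next lowest in T6 of that genotype, at 180824 CPM. Likeness to Pomc therefore weighs a low level in T8 heavily, and it was not computed without T8, which also had the lowest Pcsk2. Sult2b1 and Cryba2 were low transcripts, at 5.92 and 5.11 CPM in their lowest libraries. For Pcsk2, with a root mean square of 0.50, those nearest included Vgf (0.15), a granin precursor, and Hopx (0.16). These libraries share both genotypes and their scaling, so this is a description of likeness only.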

How the data were processed

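For each tumour the authors deposited unnormalized read counts by gene symbol (23284 symbols), followed by 5 summary rows, which entered neither library sizes nor tests. Tools named in the submitters' processing notes are bcl2fastq 1.8.2, TopHat2 2.0.12 and HTSeq 0.6.1, with build mm9. No annotation, strand setting or read filter is given in the sources used, so overlapping or antisense genes cannot be told apart. Between 11.7% and 21.7% of a table's reads lay on no feature. Per the labels' protocols, polyadenylated RNA was selected from TRIzol extracts.

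Counts were tested in R 4.3.3 with edgeR 4.0.16 (filterByExpr by genotype, TMM, robust quasi-likelihood F test, Benjamini-Hochberg over all genes, threshold 0.05) in each set, over all 17 libraries, and for the interaction in a fit of 4 groups. A positive log2 fold change means higher in Rb1/Trp53/Crebbp, and its SE is the size of the change over the root of F. Exon lengths came from GENCODE M21 transcripts with a RefSeq accession. Ratios were tested by exact permutation in scipy 1.17.1. The doubled-tail p became the main one after the absolute-difference p had been computed, and both are given. On simulated counts, 72% of 2-fold and 93% of 4-fold changes were recovered in the Pomc-high design over 14010 genes, and 56% and 83% in the Calca-high design over 14797. The simulation changed a smaller share of genes than was called in the real fits, so these rates are not the power of those fits. The lowest chi-square per degree of freedom was 8.30 over 30 pairs of libraries alike in genotype and set, so none of these pairs was a repeated deposit. Pairs across genotypes or sets were not compared.

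Members, lists and sets were chosen with earlier results of these data known. All 10 members are named, and from every other list up to 4 genes with the smallest adjusted p among those called in either set. For likeness, the nearest 3 genes averaging 5 CPM or more were taken per profile, of which 1 is not reported here. Alternatives were DESeq2 1.42.0, limma-voom (limma 3.58.1), DESeq2 and upper-quartile scaling, totals without Pomc and Calca, other filters, a replicate block and leaving out each library.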

Additional observations from a re-analysis of the deposited data

Results flagged for a closer look

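Of 30 groups of 4 or more libraries tested, 3 held a library that lay far from the others, and chance flags about 1 in 20 groups. All 3 were in the Calca-high Rb1/Trp53/Crebbp libraries: Pomc in T1 at 64.2 CPM, Pcsk2 in T3 at 1732 CPM and Pcsk1n in T2 at 259 CPM.

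The genotype effect differed between the Pomc-high and Calca-high sets, by the edgeR interaction term (effect in the Pomc-high minus effect in the Calca-high set), for 4 genes. The log2 values were 0.83 for Pcsk2 (adjusted p = 0.0339), -0.80 for Cpd (0.00893), 0.82 for Scg5 (0.0362) and 1.26 for Pcsk1n (0.0214). Over all genes, 22.9% were called by this test. The genotypes of the Calca-high set also differed in depth and in thyroid, fat and lung markers, whose part in these values was not tested.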

How the results depend on the processing

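Of 850 values of single genes under an alternative, 800 kept their direction and side of the threshold, 27 lost a call, 17 gained one and 6 changed sign. The number of the 10 genes called in the Pomc-high set moved from 2 (8.42% of all genes called) to 6 under DESeq2 (13.7%) and to 1 with the replicate block (2.53%), and ran from 1 without Rb1/Trp53/Crebbp T5 (6.34%) to 4 without T6 (8.59%) with 1 library left out. The same number lay between 3 and 5 for Calca-high libraries (3 without Rb1/Trp53/Crebbp T3, with 26.6% of all genes called against 36.2%) and between 2 and 5 for the interaction (16.1% to 24.9% of all genes). Over all libraries it was 4 with the set as a term (18% of all genes, against 3.86%). With 1 library left out, Pomc ran from -1.84 to 1.70 in the Calca-high set and from -2.14 to 1.39 for the interaction, Furin from -0.20 to 0.019 in the Calca-high set and Scg5 from -0.023 to 0.20 over all libraries. Under limma-voom Pomc was -0.60 in the Calca-high set and 0.063 for the interaction. The Pcsk1n/Pcsk1 difference in the Pomc-high set ran from 1.06 to 1.74. The Scg5/Pcsk2 difference of 1.25 in the Calca-high set passes an unadjusted 0.05 only with the p from absolute differences, an alternative added, like leaving out Rb1/Trp53 T1 and T3 together, after seeing the data. The cause of these changes was not tested.

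Deviations of same-numbered tumours of the 2 genotypes from their group means correlated at -0.16 to 0.22. The same number was the best match for T5 only. Correlations of whole profiles in such small groups cannot show whether the numbers pair the tumours, so the replicate block is given as an alternative. With the replicate block, genes called over the whole table went from 1179 to 354 in the Pomc-high set and from 5355 to 2700 in the Calca-high set, and Pcsk2 in the former (adjusted p = 0.122) and Crhr1 in the latter (0.0684) were not called. DESeq2 called 1917 genes in the Pomc-high set, and 752 were left without Rb1/Trp53/Crebbp T7. Without Rb1/Trp53 T1 and T3 the Calca-high count was 2577. Over all libraries the 554 genes called became 1397 under DESeq2 and 2575 with the set as a term, and ran from 285 to 1010 with 1 library left out. Depth limits Crhr1 in the Calca-high set, at 6 to 24 reads.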
